A study of Mus musculus with 9 samples.

Results

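The cytosolic ribosomal protein genes were taken by name from the deposited array values: probe sets with exactly 1 gene symbol of the Rpl or Rps form, one probe set per gene by the highest mean over the 9 arrays. The rule found 45 genes among 18193 measured, 24 of the large subunit and 21 of the small subunit. The 9 arrays hold RNA of frozen spleen tissue, from 4 spleens of wild-type mice labelled as healthy controls and 5 splenic lymphomas of mice with the Sca1-MALT1 transgene. The transgene joins the name of the stem cell antigen gene Sca1, which is active in blood stem and progenitor cells, to that of MALT1, a protease and scaffold protein upstream of NF-kB. Age, sex and strain are not given in the labels, and neither is whether each sample is another animal. The p-values therefore speak of the variation among these 9 samples, which may be technical. Each sample is bulk tissue, in which fewer cells of a type and less RNA per cell cannot be told apart.

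Each ribosome pairs a large subunit, which forms peptide bonds, with a small subunit, which reads the messenger RNA, and each subunit wraps ribosomal RNA in its own set of proteins. The messenger RNAs of these proteins begin with a C followed by a run of C and T bases (the 5' TOP tract), through which mTOR and LARP1 set their translation together. Their levels are among the highest of any messenger RNA, in lymphocytes as in most other cells. The comparison of lymphoma with wild-type spleen asks here whether the proteins of the ribosome are expressed at another level in the tumours, and whether both subunits move alike.

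The bases around annotated start sites show what many of these genes have in common beyond their name. RefSeq start sites (assembly GRCm38.p6) were found by symbol for 39 of the 45 genes. A run of 8 or more C or T bases on the gene's strand reached within 15 bases of a start in 20 of these 39 genes (51.3%), against 20.0% of all 27025 genes in that table. The letters CCGGAAG form a sequence favoured by some ETS family factors. They stood on either strand of the promoter window of that table in 48.7% of the 39 genes and in 9.93% of all. The letters CTTTCC, which can overlap the run, stood in 51.3% against 29.3%, and TATAAA in 12.8% against 15.7%. A match is a description of the window, not a binding site. The 30-base windows below, 15 bases on each side of a start, are shown for 5 genes with a run of 10 or more bases across the start, for Rps27l and Rps25, which lie at the ends of the range of differences, and for Rps4x, the member with the highest array level. Capitals mark the longest run of C and T that reaches into the window. The windows are chr2:26910792-26910821 for Rpl7a (plus strand), chr2:39005117-39005146 for Rpl35 (minus), chr9:120571502-120571531 for Rpl14 (plus), chr7:141447636-141447665 for Rplp2 (plus), chr17:27635230-27635259 for Rps10 (minus), chr9:66946071-66946100 for the more upstream of the 2 starts listed for Rps27l (plus), chr9:44407699-44407728 for Rps25 (plus) and chrX:102189377-102189406 for Rps4x (minus).
Rpl7a: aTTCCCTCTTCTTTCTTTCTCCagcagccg
Rpl35: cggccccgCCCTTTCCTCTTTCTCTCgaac
Rpl14: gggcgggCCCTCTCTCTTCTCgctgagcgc
Rplp2: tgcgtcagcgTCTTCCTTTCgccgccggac
Rps10: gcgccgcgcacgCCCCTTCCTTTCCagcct
Rps27l: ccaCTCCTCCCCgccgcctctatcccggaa
Rps25: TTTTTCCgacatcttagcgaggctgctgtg
Rps4x: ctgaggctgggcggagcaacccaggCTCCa
In Rpl7a, Rpl35, Rpl14, Rplp2 and Rps10 the run spans the annotated start. In Rps27l it ends before the start, in Rps25 only the end of a run of 14 bases lies inside the window, and Rps4x has no run longer than 4 bases there. The median difference between lymphoma and wild-type was -0.060 on the log2 scale for the 20 genes with a run of 8 or more and -0.064 for the 19 without one.

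The values are log2 levels after RMA, so a difference of 1 is a doubling. A probe set is the group of probes that reads a transcript. The array medians lay between 6.88 and 6.97 and the highest value of an array between 15.32 and 15.42. With 9 arrays the precision of each value is limited by their number. The 6 measured B-cell markers, which define the largest lymphocyte class of the spleen, had a median level of 12.82 over all arrays. The level of Xist, the RNA of the inactive X chromosome of females, was 7.92 and 7.15 in lymphomas 3 and 5 and between 13.69 and 13.91 on the other 7 arrays. Xist was thus high in all wild-type spleens and mixed among the lymphomas, and the fit held no term for sex.

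No ribosomal protein gene passed the test. Limma called 0 of 45 at a Benjamini-Hochberg adjusted p under 0.05, against 0.715% of all genes (0.407% higher and 0.308% lower). Before adjustment, 1 member was higher and 1 was lower at p under 0.05, against 6.69% and 8% of all genes, or 14.7% in either direction. The smallest limma adjusted p of a member was 0.262. The differences, always lymphoma minus wild-type, were negative for 37 of 45 genes, against 49.7% of all genes, with a median of -0.064 beside 0.0012 over all genes. The sizes were small: 32 of 45 genes lay within 0.1 of 0. Most members lay near the top of the scale (median level 14.15), and whether this limited the sizes was not tested. The 95% interval of the difference stayed within 0.5 of 0 on the log2 scale for 38 genes, 21 of the large and 17 of the small subunit. The groups did not overlap for 1 lower gene, Rps25, and 0 higher ones, against 4.04% and 3.29% of all genes (7.33% in either direction).

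**Figure D1:**
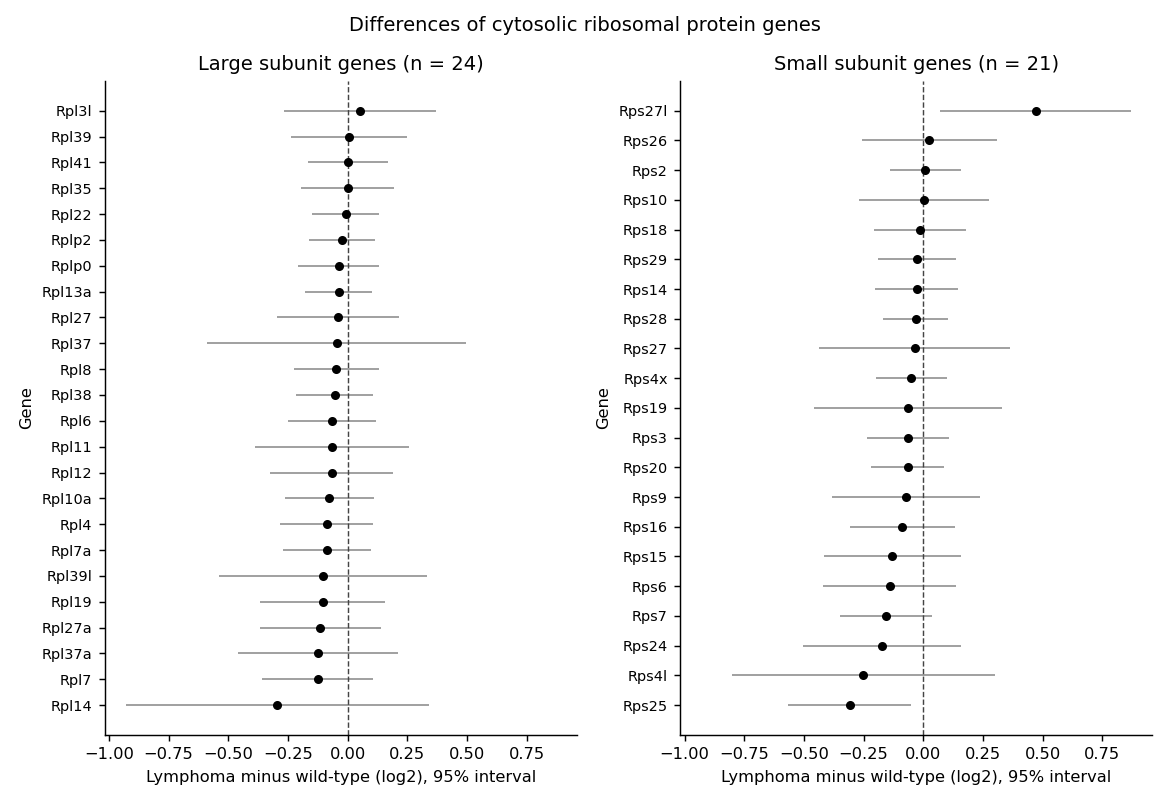
Difference between lymphoma (n = 5) and wild-type (n = 4) on the log2 scale for the 24 large-subunit and 21 small-subunit genes, sorted by size. Points are differences and bars their 95% intervals from limma. The intervals of Rps27l (above 0) and Rps25 (below 0) alone leave out 0, and neither gene passed after adjustment.

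The lymphomas were spread more widely than the wild-type spleens. On each array the deviation of a gene is its level minus its wild-type mean. The median deviation over the 45 genes was -0.24 in lymphoma 1 and -0.12 in lymphoma 2, which are -15.6% and -7.77% on the linear scale. It was -0.025 in lymphoma 3, 0.054 in lymphoma 4 and 0.029 in lymphoma 5. The wild-type spleens spanned only -0.014 to 0.0091. By this median, lymphomas 1, 2 and 3 lay below all wild-type spleens, lymphoma 3 only just, and lymphomas 4 and 5 above them. By the mean deviation, lymphoma 4 (0.011) lay inside the wild-type range of -0.010 to 0.014.

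Counts of genes also put lymphomas 1 and 2 low and lymphomas 4 and 5 high. In lymphoma 1, 36 of 45 genes lay below the lowest wild-type value, and 31 did in lymphoma 2, 18 in lymphoma 3, 8 in lymphoma 4 and 6 in lymphoma 5. Above the highest wild-type value lay 23 genes in lymphoma 4 and 16 in lymphoma 5, but 2, 4 and 2 in lymphomas 1, 2 and 3. Lymphoma 1 held the lowest of the 9 values for 28 genes, and lymphoma 4 the highest for 18. The shares of all genes outside the wild-type range on each array were not counted. These counts therefore describe the arrays and cannot be read as particular to ribosomal protein genes. The SD among lymphomas was larger than that among wild-type spleens for 39 of 45 genes, and for 14348 of all 18193 genes. Its median was 0.15 in lymphoma and 0.045 in wild-type, beside 0.20 and 0.11 over all genes.

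**Figure D2:**
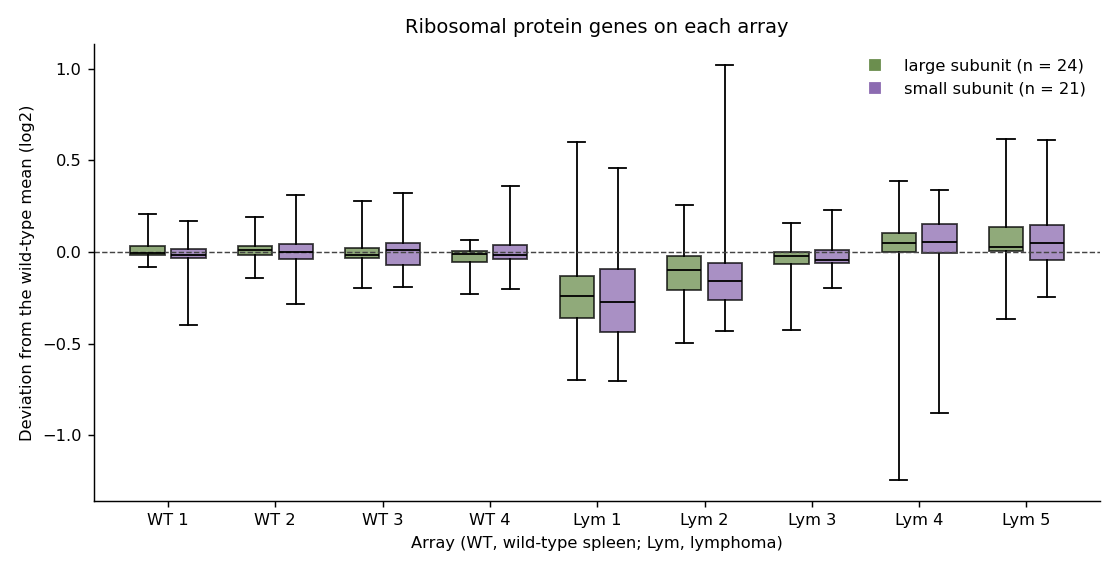
Deviation of each ribosomal protein gene from its wild-type mean (log2) on the 9 arrays, for the large (n = 24) and small (n = 21) subunit. Boxes span the quartiles with the median as a line, and whiskers reach the lowest and highest gene. Lymphomas 1 and 2 have the lowest boxes, and the boxes of both subunits lie close together on every array.

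The sign of the median difference rested on lymphomas 1 and 2, the lymphomas with the lowest median deviations. Leaving out the lowest arrays raises the median by construction, so the fit without them is a description and no test. The median difference was 0.019 when both were left out, and then 14 of 45 genes had a negative difference. Limma called 0 members in that fit too (before adjustment 0 passed as higher and 1 as lower). The median was -0.021 without lymphoma 1 alone and -0.043 without lymphoma 2 alone. Other genes above the same lower limit stood at a similar median: 194 genes that are no ribosomal protein genes and have a mean level of 13 or more had a median difference of -0.053, beside -0.053 for the 32 ribosomal protein genes above it. The counts were less alike, with 121 of the 194 other genes negative and 27 of the 32 ribosomal protein genes. The sets are not matched, with median levels of 13.48 and 14.44. By array, the median deviation of these other genes was -0.093, -0.029, -0.019, -0.085 and -0.015 in lymphomas 1 to 5. It was thus nearer to 0 than that of the ribosomal protein genes in lymphomas 1 and 2, and of the opposite sign in lymphomas 4 and 5; these gaps were not tested.

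Large and small subunit genes did not separate. The median difference was -0.060 for the large subunit (20 of 24 negative) and -0.064 for the small subunit (17 of 21 negative), so that the large minus small value was 0.0044. Among genes with a level of 13 or more it was -0.0047, from 17 large and 15 small subunit genes. Per array, the mean deviation of the large subunit minus that of the small subunit lay between -0.038 and 0.027 in the wild-type spleens. In lymphomas 1 to 5 it was 0.017, -0.018, -0.028, -0.011 and 0.0011. All 5 lymphomas lay inside the wild-type range, lymphoma 1 included, where the large subunit stood at -0.24 and the small subunit at -0.25. At an unadjusted p under 0.05, limma had 0 of 24 large-subunit and 2 of 21 small-subunit genes. These were Rps27l and Rps25, and 14.7% of all genes passed at that limit. Both lay below level 13 (means of 10.68 and 11.56). Among the genes with a level of 13 or more, 0 passed in either subunit.

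Within the large subunit, the stalk proteins bind the factors that drive elongation. Rplp0, the base of the stalk, stood at 14.56, 14.58, 14.60 and 14.56 in the wild-type spleens and at 14.33, 14.59, 14.58, 14.59 and 14.59 in lymphomas 1 to 5. Lymphoma 1 was low and the other 4 lymphomas lay within the wild-type range. The difference was -0.038 with a 95% interval from -0.21 to 0.13, and 0.014 without lymphoma 1. Rplp2, a partner on the stalk, stood between 14.80 and 14.88 in wild-type and between 14.76 and 14.90 in lymphoma (difference -0.023, interval -0.16 to 0.11).

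Rpl11, which can also bind MDM2 when ribosome assembly is disturbed, had a wider range than Rplp0, again with lymphoma 1 lowest. It stood at 13.72, 13.64, 13.63 and 13.65 in wild-type and at 13.09, 13.61, 13.61, 13.77 and 13.89 in lymphomas 1 to 5. Lymphoma 1 was the lowest of the 9 arrays and lymphoma 5 the highest, so the groups overlapped. The difference was -0.065 (interval -0.39 to 0.26, limma adjusted p 0.873), and 0.060 without lymphoma 1.

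Rpl22, which is also known for a role in T-cell development, hardly varied on the probe set that stands for it. It lay between 14.48 and 14.57 in wild-type and between 14.45 and 14.60 in lymphoma, a difference of -0.0079 (interval -0.15 to 0.13). Rpl41, which encodes a very short peptide of the ribosome, and Rpl35, at the exit of the peptide tunnel, differed by 0.0026 and 3.99e-05. The lymphoma values spanned 14.57 to 14.87 for Rpl41 and 14.18 to 14.56 for Rpl35, with lymphoma 1 lowest and lymphoma 5 highest in both.

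The largest negative differences of the large subunit were those of Rpl14 (-0.29), Rpl7 (-0.13), Rpl37a (-0.12) and Rpl27a (-0.11), with limma adjusted p-values between 0.62 and 0.748. Rpl14 stood at 10.47, 10.45, 10.09 and 10.03 in wild-type and at 10.18, 10.06, 9.89, 9.02 and 10.67 in lymphomas 1 to 5. Lymphoma 4 was far below the rest and lymphoma 5 the highest of the 9 arrays. Without lymphoma 4 the difference was -0.057. Rpl7 stood at 14.39, 14.36, 14.35 and 14.30 in wild-type and at 13.93, 14.11, 14.28, 14.41 and 14.38 in lymphomas 1 to 5, an order that again put lymphomas 1 and 2 lowest. Rpl37a stood between 13.96 and 14.02 in wild-type. It was low in lymphomas 1 (13.56) and 2 (13.49), was inside the wild-type range in lymphomas 3 and 5, and reached 14.22 in lymphoma 4.

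The small subunit held both ends of the range. Rps27l encodes a paralog of Rps27 and is a known target of p53. It stood at 10.59, 10.30, 10.34 and 10.43 in the wild-type spleens and at 10.87, 11.44, 10.56, 10.53 and 11.03 in lymphomas 1 to 5. Lymphomas 1, 2 and 5 lay above all wild-type spleens, and lymphomas 3 and 4 lay within their range, just below wild-type spleen 1. The means were 10.41 ± 0.13 (SD, n = 4) and 10.88 ± 0.37 (SD, n = 5), a difference of 0.47 (1.39-fold, interval 0.070 to 0.87). The limma adjusted p was 0.268 and the unadjusted p 0.0258, so the gene did not pass. All 3 of its probe sets differed in the same direction, by 0.47 to 0.54, but they read the same 9 samples and are not independent. All 3 are of the _x_at or _a_at type, so the gene was not measured in the alternative without these types. With any 1 array left out the difference lay between 0.33 and 0.56. Rps27l and Rpl39l were the 2 members above the wild-type range in lymphoma 1, where most others lay below it.

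Rps25, a small-subunit protein needed by some viral and cellular internal ribosome entry sites, was the member furthest below 0. It stood at 11.75, 12.04, 11.54 and 11.58 in wild-type and at 11.23, 11.48, 11.53, 11.37 and 11.48 in lymphomas 1 to 5. All lymphomas lay below all wild-type spleens, but lymphoma 3 and wild-type spleen 3 nearly touched. The difference was -0.31 (interval -0.57 to -0.050), with a limma adjusted p of 0.262 and an unadjusted p of 0.0241. It lay between -0.37 and -0.20 with any 1 array left out.

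Next in size came Rps4l (-0.25), Rps24 (-0.17) and Rps7 (-0.16), none of which passed (limma adjusted p 0.681, 0.632 and 0.448). Rps24, mutated in some patients with Diamond-Blackfan anaemia, stood between 14 and 14.16 in wild-type, with a mean of 14.08 ± 0.065 (SD, n = 4), and at 13.41, 13.79, 14.02, 14.14 and 14.15 in lymphomas 1 to 5. Lymphomas 1 and 2 were low and the other lymphomas lay within the wild-type range. Rps7 stood between 14.85 and 14.91 in wild-type. It was at 14.56 in lymphoma 1 and 14.58 in lymphoma 2, and spanned 14.82 to 14.86 in the remaining lymphomas.

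Rps19, the gene most often mutated in that anaemia, had the largest span of the small-subunit genes with a level of 13 or more. It stood at 14.06, 14.06, 14.10 and 14.14 in wild-type and at 13.39, 14, 14.12, 14.30 and 14.32 in lymphomas 1 to 5. Lymphomas 4 and 5 lay above and lymphomas 1 and 2 below all wild-type spleens. The difference of -0.064 (interval -0.46 to 0.33) became 0.096 without lymphoma 1. Rps14, the small-subunit gene in the region lost in the 5q- syndrome, differed by only -0.028, with wild-type values between 14.37 and 14.59 and lymphoma values between 14.36 and 14.55. Rps26, Rps2 and Rps10 had positive differences of 0.025, 0.0086 and 0.0023, each smaller than the SD of either group. Of the 10 measured genes known from Diamond-Blackfan anaemia, limma called 0 (0 also before adjustment), and 8 had negative differences (median -0.038).

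**Figure D3:**
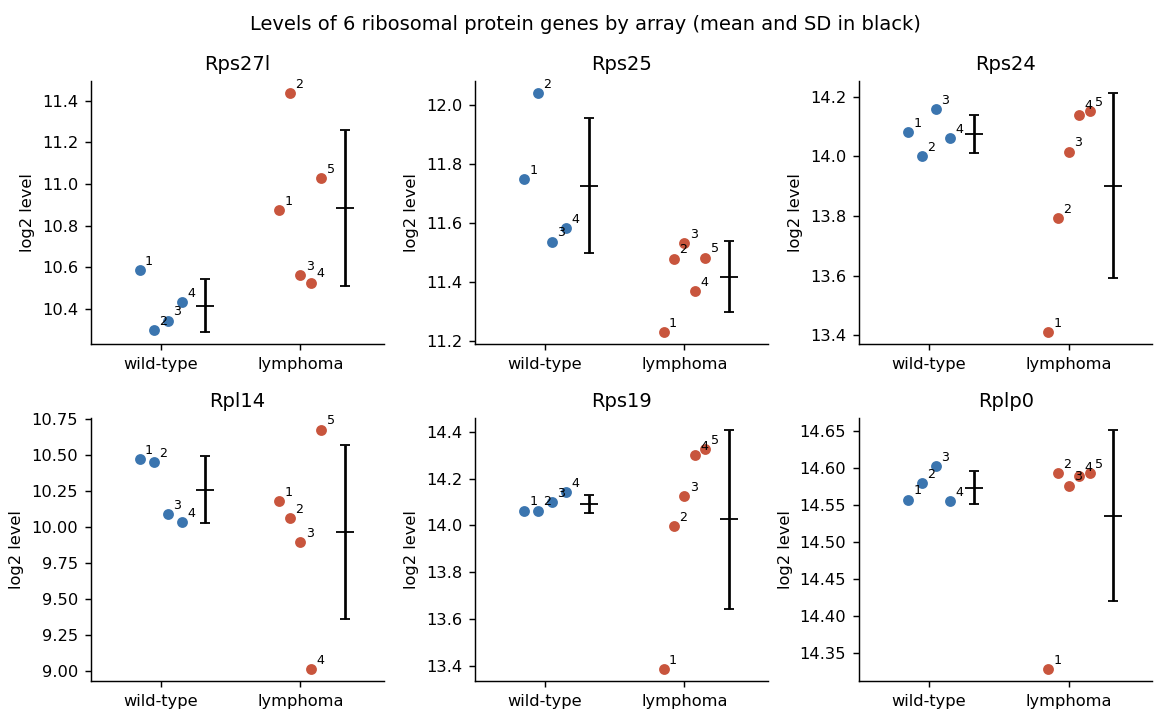
Log2 levels of Rps27l, Rps25, Rps24, Rpl14, Rps19 and Rplp0 on the 9 arrays, numbered by replicate, with the group mean and SD in black (wild-type n = 4, lymphoma n = 5). Rps25 is the one gene whose groups do not overlap, and lymphoma 1 is the lowest array for Rps24, Rps19 and Rplp0; the scales of the panels differ.

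The probe sets of paralogs of tissue-restricted type were dim. Rpl3l, a paralog of Rpl3 found in striated muscle, lay between 4.76 and 5.14 in wild-type and between 4.70 and 5.34 in lymphoma. Rpl39l, a paralog of Rpl39 best known from testis, lay between 5.51 and 5.81 in wild-type and stood at 6.24 in lymphoma 1 against 5.21 to 5.49 in the other lymphomas, so lymphoma 1, low for most members, was the highest array here. Its difference was -0.10 over all arrays. Rps4l, a paralog of the X-linked gene Rps4x, stood at 5.88, 6, 6.60 and 6.64 in wild-type and between 5.40 and 6.51 in lymphoma. The probe set of Rps4x itself had a mean level of 14.93 over all arrays and differed by -0.051 (interval -0.20 to 0.098).

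Abundance bears on how much a difference can show. Of the 45 genes 32 had a mean level of 13 or more, near the top of the scale. The other 13 lay lower, down to Rps16 at 4.23. For 9 of these 13 the same gene name also stood on a probe set with several symbols and a level of 13 or more, so the dim probe set does not show the abundance of the gene. A further 28 names of the family occurred only on probe sets with several symbols. The 110 probe sets with several symbols that include such a name, left unnamed here, had a median difference of -0.047, and limma called 0 (before adjustment 4 passed, of which 1 was higher), against 0.486% of all probe sets called and 13.9% passing before adjustment.

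Different probe sets of a gene did not always give the same picture. Of 22 members with several probe sets, 14 had differences of 1 sign and 8 of both signs. The 22 further probe sets within 1 log2 unit of the brightest had a median difference of -0.024, and the 31 dimmer ones -0.043. Among the dimmer ones, 4 had all lymphomas below all wild-type spleens: 1 probe set of Rpl22, 1 of Rpl37a and 2 of Rpl41. With that of Rps25 these were 5 of 98 probe sets, against 4.08% of all probe sets. That of Rpl22 stood between 11.23 and 11.42 in wild-type and between 10.69 and 11.22 in lymphoma (difference -0.47, limma adjusted p over all probe sets 0.113). That of Rpl37a had lymphoma values of 8.08 to 8.23 just below the wild-type values of 8.25 to 8.36 (difference -0.13, 0.4). Those of Rpl41 differed by -0.46 and -0.38 (0.124 and 0.18). The bright probe sets that stand for Rpl22 and Rpl41 differed by less than 0.01. Which stretch of the transcript each of them reads was not analysed here.

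A probe set of Rps9 took widely separated values within both groups. It stood at 12.30, 10.76, 14.60 and 14.51 in wild-type spleens 1 to 4 and at 14.26, 13.82, 10.41, 10.76 and 10.58 in lymphomas 1 to 5. The brighter probe set that stands for Rps9, a protein near the messenger RNA entry, lay between 14.08 and 14.30 in wild-type and between 13.79 and 14.39 in lymphoma. The difference of -1.08 on the spread probe set had a limma adjusted p over all probe sets of 0.706.

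**Figure D4:**
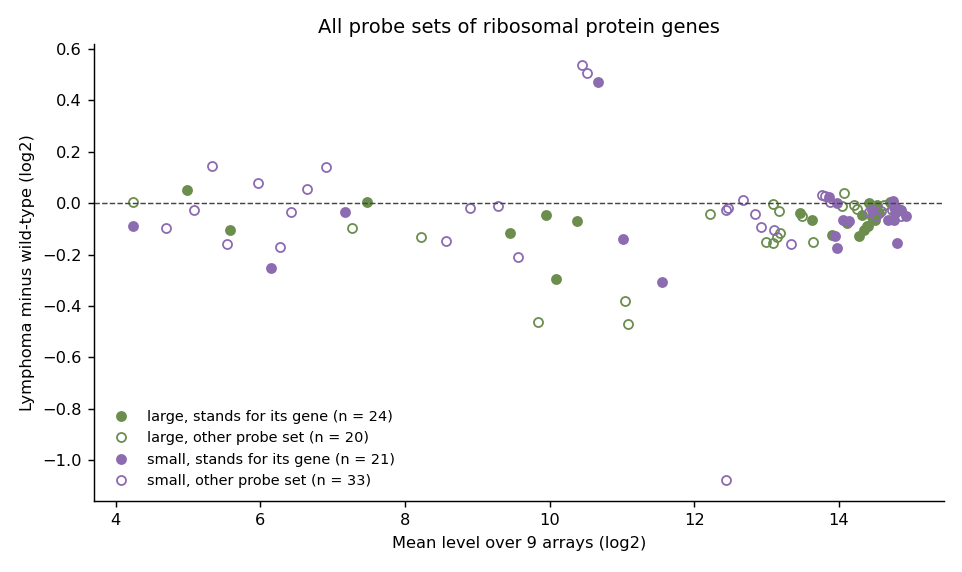
Mean level over 9 arrays against the difference between lymphoma and wild-type (both log2) for the 98 probe sets with 1 symbol of the 45 genes, by subunit; filled points stand for their gene. The points above 0.4 are the 3 probe sets of Rps27l, and the lowest point is the widely spread probe set of Rps9.

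Other genes of protein synthesis gave the setting. Their counts before adjustment are read against the 6.69% of all genes that passed as higher and the 8% that passed as lower. Of 18 measured translation factors and related genes whose messages carry a 5' TOP tract, limma called 0 (before adjustment 3 passed, all lower; 17 negative, median -0.084). The largest differences were those of the initiation factor gene Eif3a (-0.34) and Hnrnpa1 (-0.32), an RNA-binding protein. The elongation factor gene Eef2 stood at 12.98 in lymphoma 1 and 13.45 in lymphoma 2 against 13.76 to 13.92 in wild-type and 13.77 to 13.86 in lymphomas 3 to 5, so that lymphomas 1 and 2 were again the low arrays. This gene was chosen after its values were seen. Fau, which encodes a small-subunit protein outside the name rule, stood at 13.69 in lymphoma 1 and 13.68 in lymphoma 2, between 13.95 and 14.06 in wild-type, and reached 14.14 in lymphoma 4. Rpl22l1, the paralog of Rpl22, differed by -0.30 (limma adjusted p 0.483).

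Genes that build ribosomes also had mostly negative differences. Of 32 measured genes of ribosome biogenesis limma called 0 (before adjustment 5 passed, all lower; 25 negative, median -0.098). Ncl, which encodes nucleolin, stood at 13.10, 13.05, 13.07 and 12.85 in wild-type and between 12.60 and 12.83 in lymphoma, with no overlap (difference -0.32, limma adjusted p 0.134). Mdn1, an ATPase of large-subunit assembly, differed by -0.37 (0.344). Of 11 genes that regulate TOP translation limma called 0 (before adjustment 1 passed, higher), and Eif4ebp1, the translation repressor that mTOR inactivates, differed by 0.46 (limma adjusted p 0.23). Rps6ka3, which encodes a kinase downstream of ERK, differed by -0.24 (0.659). Mitochondrial ribosomal protein genes, which serve a separate ribosome, had mostly positive differences, 51 of 76 with a median of 0.087, and limma called 0 of them (before adjustment 6 passed, all higher). The largest differences were those of Mrpl57 (0.31) and Mrps6 (0.30). The difference between the cytosolic and mitochondrial sets was not tested.

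Erythroid, T-cell and proliferation markers set lymphomas 1 and 2 apart from the other lymphomas, while neutrophil, B-cell and macrophage markers did not. The mean deviation of 9 measured erythroid markers was highest in lymphoma 1 (4.29) and lymphoma 2 (4.02). It was 1.11, -1.09 and 0.27 in the remaining lymphomas and spanned -0.44 to 1.29 in wild-type. The T-cell markers (6) were lowest on the same arrays, at -1.23 in lymphoma 1 and -1.25 in lymphoma 2, against -0.13 to 0.078 in the remaining lymphomas and -0.079 to 0.17 in wild-type. Proliferation markers (7) were at 1.89 in lymphoma 1 and 1.75 in lymphoma 2, against -1.45 to 0.0013 in the other lymphomas and -0.37 to 0.30 in wild-type. Limma called 0 genes of these 3 lists. The largest differences were 2.36 for Rhag and 2.14 for Kel (erythroid), -1 for Cd8a and -0.75 for Cd3d (T-cell), and 0.54 each for Mki67 and Ccnb2 (proliferation). The neutrophil markers (7, with 0 called) stood at 5.90 in lymphoma 1 and between -0.0022 and 2.65 in the others, with lymphoma 2 at 2.57 and lymphoma 5 at 2.65. The B-cell markers (6) stood at -1.11 in lymphoma 1 and between -0.40 and 0.050 in the others. Lymphoma 2, at 0.050, was the highest of the 9 arrays for B-cell markers, and lymphoma 5 stood at -0.40. Macrophage markers (7, of which limma called 5 as higher) were raised in all lymphomas. Their mean deviation lay between 1.07 and 1.53 in the lymphomas and between -0.12 and 0.13 in wild-type. The complement genes C1qb, C1qc and C1qa rose by 2.40, 2.34 and 1.93 (limma adjusted p 0.0072, 0.0046 and 0.0046). Neutrophil differences were largest for S100a9 (3.41) and S100a8 (3.04), and B-cell differences for Blk (-0.54) and Cd22 (-0.52). With the erythroid score as a covariate the median difference of the ribosomal protein genes was 0.011, beside a median of 0.011 over all genes, and 18 of 45 had a negative difference. Limma called 0 of them in that fit (before adjustment 1 passed as higher and 0 as lower). The erythroid score was highest in lymphomas 1 and 2, the arrays lowest for the ribosomal protein genes. This fit therefore cannot tell erythroid markers from any other trait of these 2 arrays. The part of these markers in the result was not tested.

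Array quality measures also had extreme values, in lymphoma 1 for the Gapdh ratio and in lymphoma 2 for the 18S level. The Gapdh 3' probe set exceeded the 5' one by 2.80 in lymphoma 1, against 1.92 to 2.20 in the other lymphomas and 2.18 to 2.42 in wild-type. With this ratio as a covariate the median difference was -0.088. The same measure for actin was 1.31 in lymphoma 1, against 0.95 to 1.19 in the other lymphomas and 1.04 to 1.16 in wild-type. The 18S ribosomal RNA control level was 12.68, 13.37, 12.18, 12.63 and 12.86 in lymphomas 1 to 5, against 12.15 to 12.37 in wild-type. All lymphomas except lymphoma 3 thus lay above all wild-type spleens. With the 18S level as a covariate the median difference was -0.038. That fit cannot fully tell the 18S level from the group.

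**Figure D5:**
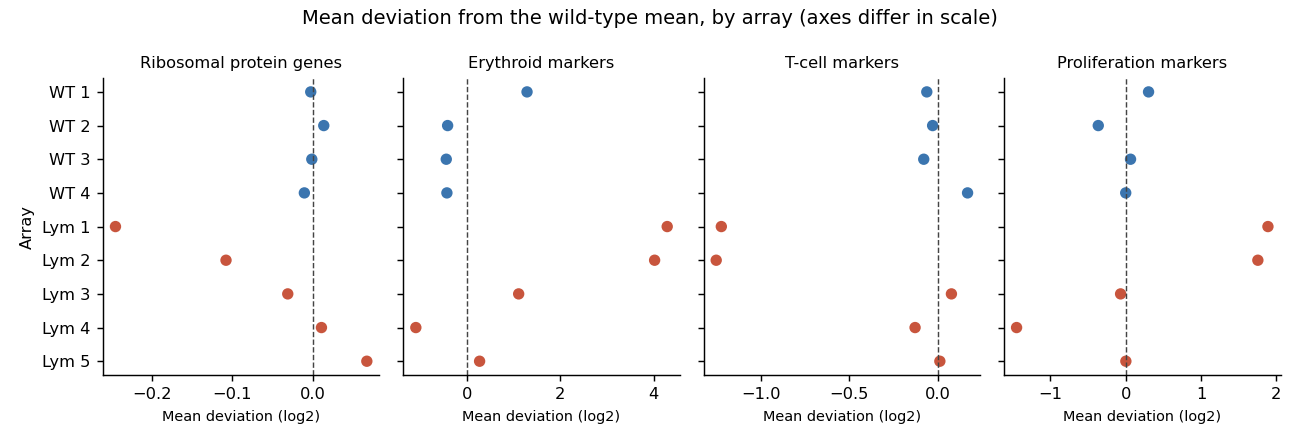
Mean deviation from the wild-type mean (log2) on each array for the 45 ribosomal protein genes and for 9 erythroid, 6 T-cell and 7 proliferation markers; the axes differ in scale. Lymphomas 1 and 2 are lowest for ribosomal protein genes and T-cell markers and highest for erythroid and proliferation markers.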

How the data were processed

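Total RNA of frozen spleen biopsies was made into biotin-labelled cRNA with Affymetrix kits, according to the label and extract fields. RMA, named in the submitters' processing notes, turned probe signals into the log2 values that were deposited, 1 per probe set and array. RMA corrects background, normalizes between arrays and summarises probes. Its version and settings: not given in the sources used here. Of 45101 probe sets, 64 controls were left out of the tests. Of the other 45037, 34945 had 1 gene symbol in the platform annotation, 932 several and 9160 none. All 45 members had the same gene identifier in RefSeq GRCm38.p6.

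Lymphoma and wild-type were compared over all 18193 genes with limma (version 3.58.1, run in R 4.3.3) by a two-sided moderated test and Benjamini-Hochberg adjustment, with no covariate and no filter. The script was tested on simulated data. Members named are those with the 4 largest differences in each direction and the highest and lowest level of each subunit, and a list of 16 genes of interest, 11 of them measured; other members given as examples (such as Rps9) were chosen after their values were seen. In each other list up to 3 called genes, or else the 2 largest differences, were named; Eef2 was added. Members and lists were chosen with earlier results of these data known. Alternatives were scaling, a dim filter, trend, robust prior, weights, covariates, the replicate block, other probe sets and left-out arrays. Figures used matplotlib 3.10.9 in Python 3.11.15.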

Additional observations from a re-analysis of the deposited data

Results flagged for a closer look

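Of 58 sets of values examined (25 named genes and 4 array scores, each in 2 groups), 5 held 1 array far from the rest of its group, and chance alone gives about 5%. Lymphoma 1 stood at 14.33 for Rplp0, against 14.58 to 14.59 in the other lymphomas, and at 6.24 for Rpl39l, against 5.21 to 5.49. Wild-type spleen 4 stood at 14.75 for Rpl41, against 14.68 in the others, at 14.48 for Rpl35, against 14.39, and at 14.90 for Rps4x, against 14.97. These 3 wild-type gaps are under 0.1 on the log2 scale.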

How the results depend on the processing

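The count of ribosomal protein genes called by limma was 0 in all alternatives run, and the smallest adjusted p of a member in any of them was 0.111. The number of all genes called, 130 as reported, was 532 with array weights, 315 with 1 weight per group, 459 with the Gapdh ratio, 14 with the 18S level, 601 without lymphomas 1 and 2, and 10 to 328 with 1 array left out (10 without wild-type spleen 2, 328 without lymphoma 2). With the replicate number as a block it was 7 and the members' median difference -0.077. The numbers did not pair the samples (correlations of deviations of 0.12, -0.20, 0.14 and 0.0041), and that fit leaves lymphoma 5 without weight. The large minus small value was -0.030 with the mean of a gene's probe sets, and -0.0046 to 0.014 with 1 array left out. The members' median lay between -0.088 and -0.021 with 1 array left out, that of the large subunit between -0.084 and -0.014 and that of the small subunit between -0.092 and -0.021. Leaving out members below level 13 (-0.053) and using probe sets with several symbols (-0.047) were chosen after seeing the data.

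Differences of named genes that were not called changed sign as follows, and the cause was not tested. Quantile normalization gave Rps10 -0.012 and median centring Rps10 -0.00021 and Rpl35 -0.0025. Array weights gave Rps26 -0.010, Rps2 -0.010, Rpl11 0.0089, Rps14 0.035 and Rps19 0.066. The replicate block gave Rpl39 -0.061, Rpl41 -0.040, Rpl35 -0.036, Rps26 -0.0057 and Rps10 -0.036. The Gapdh ratio gave Rpl39 -0.041, Rpl41 -0.018, Rpl35 -0.030, Rps26 -0.0097 and Rps10 -0.043. The 18S level gave Rpl39 -0.066, Rpl41 -0.034, Rpl35 -0.0058, Rpl37a 0.090, Rpl27a 0.024, Rps26 -0.086, Rps2 -0.069, Rps10 -0.042, Rps4l 0.026 and Rps14 0.069. The erythroid score gave Rpl37a 0.079, Rps2 -0.015, Rps24 0.0098, Rps16 0.032, Rplp0 0.010, Rpl11 0.080, Rps14 0.027, Rps19 0.15 and Rpl22 0.0051. The mean of probe sets gave Rpl41 -0.21, Rpl35 -0.017, Rps10 -0.023 and Rps4x 0.014. Without _x_at, _s_at and _a_at probe sets Rpl41 was -0.46, Rpl35 -0.097 and Rps10 -0.15, and without _x_at probe sets alone Rpl41 was -0.46 and Rpl35 -0.030. Without lymphomas 1 and 2 Rpl7 was 0.0080, Rpl37a 0.099, Rps2 -0.024, Rps24 0.027, Rps16 0.019, Rplp0 0.012, Rpl11 0.096, Rps14 0.023, Rps19 0.16 and Rpl22 0.013. With 1 array left out the ranges were -0.14 to 0.060 for Rpl11, -0.026 to 0.012 for Rpl22, -0.036 to 0.058 for Rpl35, -0.061 to 0.087 for Rpl39, -0.033 to 0.13 for Rpl3l, -0.040 to 0.036 for Rpl41, -0.052 to 0.014 for Rplp0, -0.063 to 0.096 for Rps10, -0.064 to 0.011 for Rps14, -0.14 to 0.096 for Rps19, -0.024 to 0.028 for Rps2 and -0.042 to 0.10 for Rps26. Rps27l, Rps25, Rpl14, Rps7, Rplp2 and Rpl39l kept their sign in all alternatives that measured them.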
